A study of Mus musculus with 2 samples.

Results

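The 40 genes described here carry a cell through the cell cycle. They were chosen from a list of DNA replication and mitosis genes, 18 acting in S phase and 22 in mitosis, and all 40 were found among the 24543 genes of the count tables. Their UMIs (unique molecular identifiers, each standing for 1 captured RNA molecule) were read in 2139 single cells sorted as CD31+CD44+ from the caudal region of mouse embryos at E10.0, a stage at which the dorsal aorta gives rise to blood cells. Control embryos were littermates of the genotypes Nupr1 fl/fl and Nupr1 fl/+, and cKO embryos were Vec-Cre;Nupr1 fl/fl, in which Cre is driven by the Cdh5 promoter and so acts in endothelial cells and their descendants. All were on a C57BL/6 background. Cells of both genotypes carried a hashtag, WT or KO, and were run as 1 10x Chromium pool in each of 2 replicates, giving 1057 KO-hashtag and 1082 WT-hashtag cells. The embryos behind a hashtag are not told apart, so each value below is that of pooled embryos.

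A cell that commits to division first makes the G1/S cyclins Ccne1 and Ccne2, then loads and fires replication origins with Cdc6, Cdt1 and the Mcm helicase, and copies its DNA with Pcna and the nucleotide suppliers Rrm1, Rrm2 and Tyms. Cyclin A and B with Cdk1 then drive mitosis, where the Aurora and Polo-like kinases and the spindle genes separate the chromosomes, and Cdc20 and Ube2c let the anaphase-promoting complex end it. Replication genes are known targets of E2F factors and mitosis genes of the DREAM and MMB-FOXM1 complexes. In the dorsal aorta, arterial endothelial cells that turn into blood pass through the endothelial-to-hematopoietic transition (EHT).

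Cells were sorted into classes by marker genes that are not among the 40, each at a level set over all cells. Levels were shares of a cell's unthinned UMIs, so the marker UMIs needed to pass rose with its depth. The part of depth in the classes was not tested. Gja5, a gap junction gene of arterial endothelium, marked 391 arterial cells. Kitl with Esm1 marked 105 plexus cells, Gfi1 with Neurl3 marked 199 EHT cells, and Ptprc with Myb marked 83 progenitors. Mpo with Fcgr3 marked 123 myeloid cells, C1qa marked 614 macrophages and Gp9 marked 211 megakaryocytes. Another 383 cells passed no gate and 30 passed gates of unrelated classes and were kept apart. A cell that passed gates of related classes took the last in the order arterial, plexus, progenitor, EHT, myeloid and macrophage. The 83 progenitors are thus the cells that passed no other gate. Of the cells passing the progenitor gate and another, 53 with the EHT gate, 50 with the myeloid and 52 with the macrophage gate went to those classes. These gates are ranges and not cell types, and 129 of the 246 cells that passed the progenitor gate lay within 2-fold above its level, as did 43 of 528 for the arterial gate. Of the 105 plexus cells, 71 also passed the arterial gate, and their sums carried the arterial genes Gja5 (mean 552.2 CPM, UMIs scaled to 1000000 per sum) and Gja4 (1284) far above the venous and capillary gene Aplnr (33.8), so the name plexus stands only for Kitl with Esm1. Progenitor sums held the myeloid genes Mpo (356.3 CPM) and Prtn3 (489.7), and 1 of the 2 megakaryocyte sums held the embryonic globin RNA Hbb-y at 1232 CPM and the other at 13.3. The macrophage gene C1qb, which no gate used, stood at 2307 CPM in macrophages, 6.25 in arterial and 52.5 in progenitor sums. The targeted gene was lower in cKO cells, with Nupr1 at 1.71 and 2.01 CPM in the cKO EHT sums and at 43.1 and 31.7 in control.

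Depth differed between the classes, from a median of 23425 UMIs per arterial cell to 82760 per myeloid cell. To count cycling cells at 1 depth, each cell was thinned at random to 6000 UMIs, which left out 31 shallower cells and kept 2108. A cell was called M-high with at least 10 UMIs of the 22 mitosis genes and S-high with at least 10 of the 18 replication genes, limits set over all cells without regard to class. Within 2 UMIs of the limit lay 327 cells for the mitosis and 554 for the replication set, so a high cell is a range too. For tests, UMIs were summed over the cells of 1 class, hashtag and replicate (726806 to 15965186 UMIs a sum), and sums of fewer than 10 cells were not used. That left 4 sums in each class (cKO and control in replicates 1 and 2) but 3 in myeloid cells and 2 in megakaryocytes, both of replicate 2. The 2 hashtag sums of a replicate share a lane, and p-values measure only the spread between these sums.

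The promoters of the 2 sets differ in sequence. Those of 34 members were in a RefSeq table (GRCm38.p6), each as a window from 250 bases before to 50 after the gene's start. Promoters were counted by gene, a gene holding a motif if any of its windows did. An E2F motif (TTTGGCGC, TTTCGCGC, TTTCCCGC or TTTGCCGC, on either strand) was found in 7 of 15 replication promoters, 46.7%, in 1 of 19 mitosis promoters, 5.26% (Cdk1), and in 2.6% of 27025 genes. The CHR motif (TTTGAA or TTTAAA, on either strand, the latter its own reverse complement), through which mitosis genes are known to be held back and then switched on, was found in 17 of 19 mitosis promoters, 89.5%, in 6 of 15 replication promoters, 40%, and in 30.6% of all. In the 250 bases before the start alone, the CHR motif was in 11 of 19 mitosis promoters (57.9%), 4 of 15 replication promoters (26.7%) and 28.1% of all. An E2F motif was there in 5 of 15 replication promoters (33.3%), 1 of 19 mitosis promoters (5.26%) and 2.16% of all. CCAAT boxes, bound by NF-Y, were found in 84.2% of the mitosis and 73.3% of the replication promoters in the whole window, against 41.1% of all. A match is a stretch of letters and not a bound site. The 250 bases before the start are shown for Mcm5, a subunit of the helicase, and for Ccnb1, Cdc20 and Top2a, because they are among the 8 genes named in every comparison and show how the motifs lie. They run 5′ to 3′ on the gene's own strand, with E2F, CHR and CCAAT matches in capitals. In Mcm5, E2F matches on both strands overlap in 1 run.
Mcm5, chr8:75109259-75109508 (plus strand): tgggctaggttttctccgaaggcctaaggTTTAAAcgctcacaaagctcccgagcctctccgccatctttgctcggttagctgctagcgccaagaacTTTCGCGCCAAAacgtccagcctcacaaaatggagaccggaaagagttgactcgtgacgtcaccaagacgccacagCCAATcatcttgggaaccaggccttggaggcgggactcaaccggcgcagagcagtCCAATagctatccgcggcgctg
Ccnb1, chr13:100786487-100786736 (minus strand): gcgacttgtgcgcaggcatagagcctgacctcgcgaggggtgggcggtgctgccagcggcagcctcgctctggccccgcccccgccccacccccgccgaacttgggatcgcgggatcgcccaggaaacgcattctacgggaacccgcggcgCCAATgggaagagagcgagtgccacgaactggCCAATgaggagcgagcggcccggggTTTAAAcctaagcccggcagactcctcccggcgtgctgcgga
Cdc20, chr4:118437344-118437593 (minus strand): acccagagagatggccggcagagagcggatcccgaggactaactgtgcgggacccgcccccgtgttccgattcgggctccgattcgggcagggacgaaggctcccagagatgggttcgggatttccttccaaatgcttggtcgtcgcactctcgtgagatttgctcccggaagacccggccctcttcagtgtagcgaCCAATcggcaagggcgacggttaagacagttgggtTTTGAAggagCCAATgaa
Top2a, chr11:99024190-99024439 (minus strand): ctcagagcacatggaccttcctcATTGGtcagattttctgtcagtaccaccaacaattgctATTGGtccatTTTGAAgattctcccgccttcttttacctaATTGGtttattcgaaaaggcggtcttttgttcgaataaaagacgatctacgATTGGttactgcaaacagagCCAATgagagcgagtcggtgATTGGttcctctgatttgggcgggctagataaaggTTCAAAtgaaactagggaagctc

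Of the 2108 thinned cells, 1095 (51.9%) were M-high and 909 (43.1%) S-high. Neither limit was reached by 635 cells (30.1%), 378 (17.9%) were S-high only, 531 (25.2%) both, and 564 (26.8%) M-high only. To describe a member over these 4 states, its own UMIs were left out of the call, which then rests on the other 39. The members were picked to move together, so these levels are a description and carry no test. All 18 replication genes were higher in the S-only than in the M-only cells, and all 22 mitosis genes the reverse. Ccne2, a cyclin of S phase entry, stood at 5.21 CPM in cells with neither, 39.8 in S-only, 25.9 in both and 3.82 in M-only cells (log2 M-only over S-only -3.38, the lowest of any member). Rrm1, a subunit of ribonucleotide reductase, was nearly level between S-only and M-only cells (log2 -0.08) and peaked in cells high for both, as did Rrm2, Tyms, Cdc45, Aurkb, Top2a and Mki67. The mitosis genes differed in how far they parted the states. Nusap1, which binds spindle microtubules, was at 6.53 CPM with neither, 8.75 in S-only, 102.3 in both and 132.2 in M-only cells (log2 3.92), followed by Cenpf (3.77) and Plk1 (3.42), while Cdk1 differed least among the mitosis genes (0.90). Some mitosis genes were far from silent outside the called cells. Birc5, the inner centromere protein survivin, was at 121.8 CPM and Ccnb2 at 65.7 CPM in cells with neither, against 4.43 for Plk1.

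The share of M-high cells was lowest in the 2 endothelial classes as gated. It was 27.5% ± 6.99 (SD, n = 4 sums) in arterial cells, 18.6% ± 11.2 (n = 4) in plexus cells, 43.6% ± 6.24 (n = 4) in EHT cells and 61.6% ± 13.3 (n = 4) in progenitors. Macrophages followed with 71.5% ± 14.0 (n = 4), myeloid cells with 59.2% ± 4.97 (n = 3) and megakaryocytes with 59.2% ± 0.0955 (n = 2). Grouped by clusters, plexus cells gave 61.3% and megakaryocytes 37.6%. Cells without a gate gave 65.4% ± 3.83 (n = 4). By sum, arterial cells gave 27.4% and 17.7% in cKO replicates 1 and 2 and 31.6% and 33.3% in control. EHT cells gave 35.9% and 43.9% in cKO and 43.4% and 51.2% in control, all above every arterial sum. Progenitors gave 64.7% and 79.2% in cKO and 50.0% and 52.6% in control, so that they overlapped EHT cells by the sum at 51.2%. The arterial and plexus sums overlapped, as did those of all blood classes from progenitors on. The shares are scores over the members and are given without a test. Cells called M-high were also deeper before thinning, by a ratio of median UMIs from 1.09 in megakaryocytes to 1.70 in plexus cells, and the part of depth in the call beyond thinning was not tested.

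**Figure D1:**
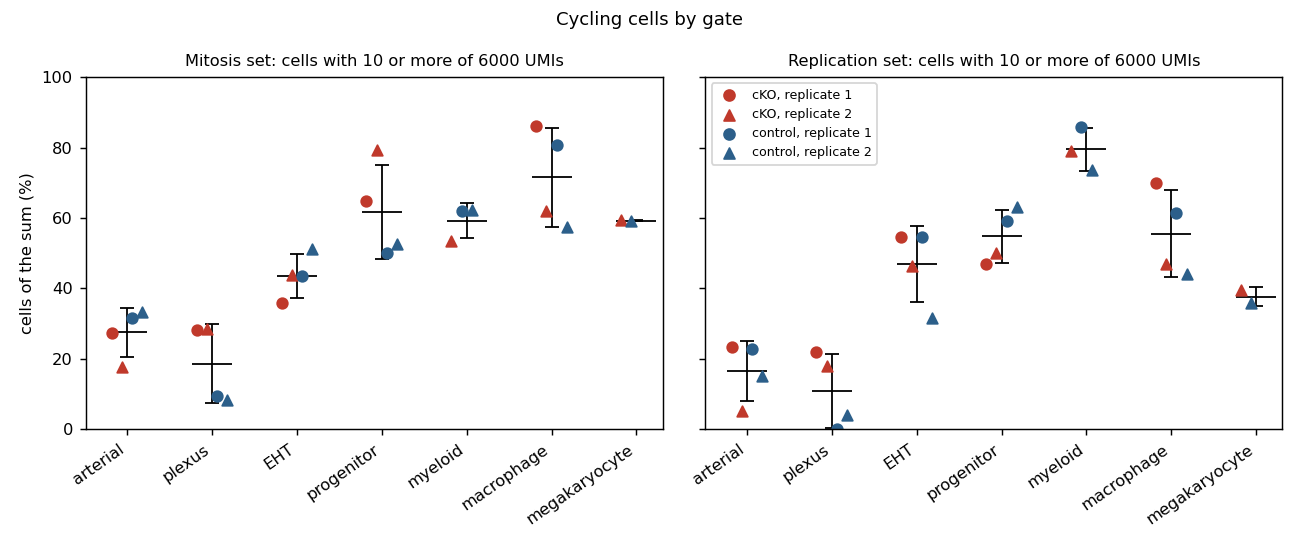
Share of M-high and S-high cells (percent of cells thinned to 6000 UMIs) by class, with a point for each hashtag and replicate sum. Black bars give the mean and SD over the sums of a class. All 4 EHT sums lie above all 4 arterial sums in both shares, and the myeloid sums hold the highest S-high shares.

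The S-high share had another order. It was 16.6% ± 8.47 in arterial cells (n = 4), 46.9% ± 10.8 in EHT cells (n = 4), 54.8% ± 7.55 in progenitors (n = 4) and 79.5% ± 6.07 in myeloid cells (n = 3), and lower again in macrophages (55.6% ± 12.3, n = 4) and megakaryocytes (37.7% ± 2.62, n = 2). By sum, arterial cells gave 23.3% and 5.21% in cKO and 22.8% and 15.1% in control, below all EHT sums, which gave 54.7% and 46.3% in cKO and 54.7% and 31.7% in control. The myeloid sums, at 79.1%, 85.7% and 73.6%, lay above the sums of every other class. In plexus cells the share was 11.0% ± 10.5 (n = 4), and none of the 21 control cells of replicate 1 was S-high, which allows a share of up to 14.3%.

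The phase balance therefore differed between classes with like M-high shares. Among myeloid cells 36.6% were S-high only and 16.3% M-high only (means of 3 sums), and among megakaryocytes 12.6% and 34.2% (means of 2). Of arterial cells, 66.4% reached neither limit, of plexus cells 77.0%, of EHT cells 28.4%, of progenitors 10.4% and of myeloid cells 4.21%. The log2 ratio of M-set to S-set UMIs was 0.91 ± 0.010 (n = 2) in megakaryocytes, 0.74 ± 0.25 in arterial cells and 0.74 ± 0.13 in macrophages, and 0.0046 ± 0.077 (n = 3) in myeloid cells, with no overlap between the myeloid sums and those of any of these 3 classes. In EHT cells it was -0.06 and 0.05 in cKO and -0.11 in control replicate 1, but 1.02 in control replicate 2, whose S-high share of 31.7% was also the lowest of the 4. The EHT mean of 0.22 ± 0.54 thus rests on a sum that stands apart from the rest.

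**Figure D2:**
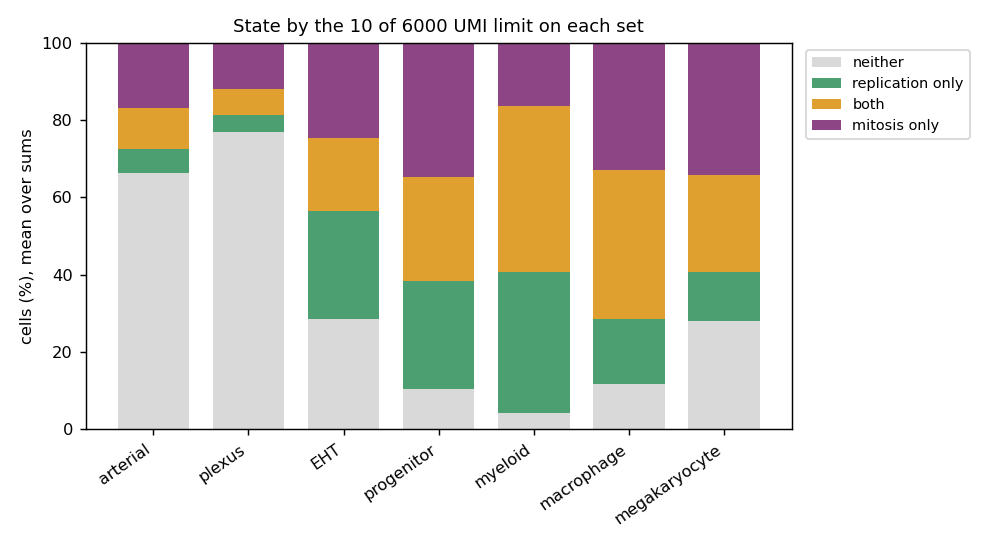
Mean percent of thinned cells in each of 4 states (neither set high, S-high only, both, M-high only) by class, as means over the sums of a class. Cells high for neither set make up 66.4% of arterial and 77.0% of plexus cells but 4.21% of myeloid cells, and S-high only cells are most frequent in the myeloid class.

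Within the EHT class the M-high share went with the other gates a cell passed. Of EHT cells that still passed the arterial Gja5 gate, 15 of 54 were M-high, 27.8%. Of those that passed the EHT gate alone, 38 of 89 were, 42.7%, and of those that also passed the progenitor gate 31 of 53 were, 58.5%. By sum the ranges were 22.2 to 33.3%, 29.4 to 52.6% and 46.2 to 77.8%, and the first and the last did not overlap in any of the 4 sums. The S-high share did not follow this order, at 35.2%, 55.1% and 50.9%. Median depth moved the same way as the M-high share, at 38488, 48348 and 57841 UMIs, and its part beyond the thinning was not tested. These gates and counts were chosen after the values of the whole class were known.

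**Figure D3:**
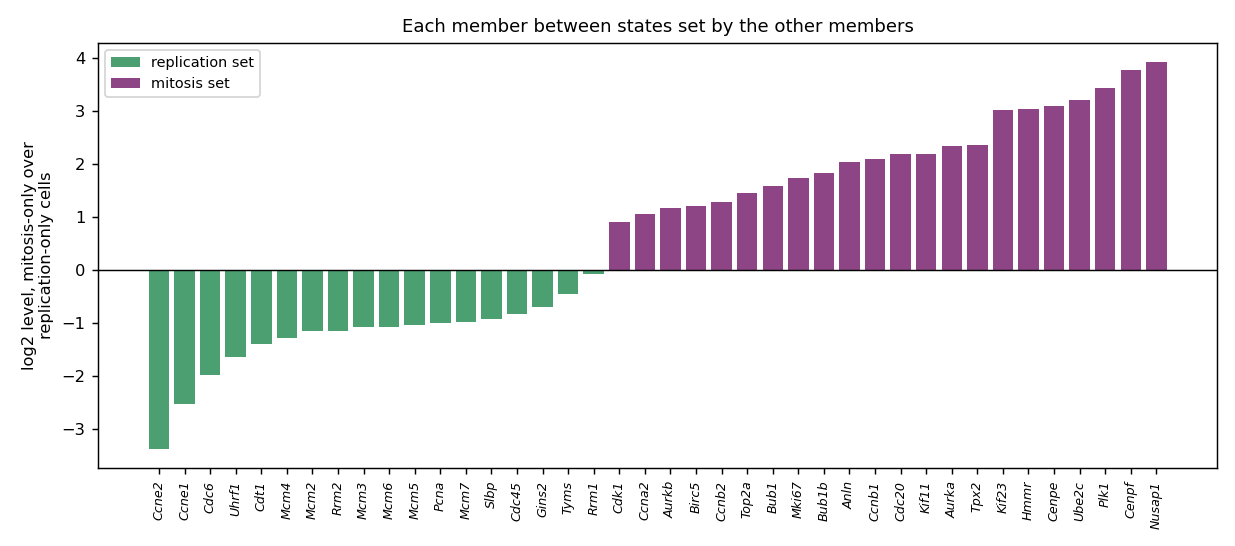
Log2 ratio of each member's level (CPM of thinned cells) in M-high only over S-high only cells, 1 bar a gene, with states set by the other members. All 18 replication genes lie below 0, from Ccne2 at -3.38, and all 22 mitosis genes above it, up to Nusap1 at 3.92.

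EHT cells held more replication gene RNA than arterial cells as a share of UMIs. Of 40 members tested in edgeR's quasi-likelihood test (adjusted p over all 9936 genes, threshold 0.05), 23 were higher in EHT cells and 0 lower, against 21.2% of all genes called higher. Of the 18 replication genes 15 were higher, with a median log2 fold change of 0.78, and of the 22 mitosis genes 8 were, with a median of 0.41, beside 0.0034 over all genes. In these sums more cycling cells and more RNA per cycling cell cannot be told apart. All 8 helicase genes rose. Mcm5 led with 62.8 and 32.2 CPM in arterial cKO, 56.5 and 50.0 in arterial control, 127.3 and 111.9 in EHT cKO and 126.2 and 97.8 in EHT control, so that the lowest EHT sum was above the highest arterial one (log2 fold change 1.28 ± 0.18 SE, n = 4 against 4 sums, adjusted p = 6.1e-05). Mcm7 rose by 1.19 and Cdc45, which activates the helicase, by 1.04. Both licensing genes rose, Cdc6 by 1.09, and so did the chromatin genes Slbp, which matures histone mRNA, and Uhrf1 (1.02), which helps to copy DNA methylation. Pcna, the sliding clamp, rose by 0.75 ± 0.15 (edgeR adjusted p = 0.00115), with no overlap between 86.7 to 142.3 CPM in arterial and 172.1 to 209.4 in EHT sums.

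The cyclin Ccne1 did not pass the test, at 27.6 and 11.4 CPM in arterial cKO, 27.5 and 11.95 in arterial control, 52.98 and 24.1 in EHT cKO and 35.1 and 20.3 in EHT control (log2 0.86 ± 0.33, edgeR adjusted p = 0.0517). In both classes replicate 1 was the higher one. Rrm2, the limiting subunit of ribonucleotide reductase, was at 46.3 to 92.1 CPM in arterial and 65.8 to 86.8 in EHT sums and did not pass (log2 0.24 ± 0.18). The remaining replication gene without a call was Ccne2. Among the mitosis genes those that rose were Ccna2, Ccnb1, Cdk1, Aurka, Aurkb, Bub1b, Cdc20 and Hmmr. Aurka, the kinase of the spindle poles, changed most of these (log2 0.88). Ccnb1, the mitotic cyclin, stood at 43.9 to 72.0 CPM in arterial and 66.1 to 115.7 in EHT sums, which overlapped (0.68 ± 0.21, adjusted p = 0.0183). For Cdc20, the activator of anaphase, the ranges were 80.3 to 107.1 and 98.8 to 221.2 CPM (0.75 ± 0.25, adjusted p = 0.0251).

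The proliferation markers Mki67 and Top2a did not pass the test. Mki67, a surface coat of mitotic chromosomes, stood at 161.8, 68.6, 190.0 and 106.8 CPM in the arterial sums (cKO replicates 1 and 2, control replicates 1 and 2) and at 142.7, 74.9, 118.9 and 59.7 in the EHT sums (log2 -0.34 ± 0.31, adjusted p = 0.416). Top2a, the topoisomerase that untangles sister chromatids, had a log2 fold change of 0.30 ± 0.29 (adjusted p = 0.442). Within M-high cells alone, the mean Mki67 level was 362.5 ± 119.3 CPM (SD, n = 4 sums) in the arterial and 178.3 ± 83.8 in the EHT class, with lowest and highest sums of 254.6 and 492.5 against 87.6 and 250.5. Cells called M-high had median depths of 30004 UMIs in the arterial and 60326 in the EHT class. The levels are shares of UMIs and not amounts per cell. Fewer arterial cells were M-high, but in those that were Mki67 made up a larger share of UMIs. The reverse held for Mcm5 in cells high for neither set, at 31.0 ± 9.31 CPM in arterial and 95.2 ± 33.1 in EHT cells, again without overlap (22.9 to 43.8 against 50.4 to 127.8). Birc5 in the same cells stood at 51.0 ± 13.2 and 121.9 ± 44.8 CPM. In these cells the gene's own UMIs were again left out of the call, UMIs were scaled to 6000 in place of thinning, and the levels were not tested.

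Members called higher were 19 to 24 in number when each sum was left out in turn, against 1825 of 10200 to 2088 of 10256 genes. In every such fit 17 of the 23 calls held, among them 14 of the 15 replication genes (Gins2 being the exception). Of the mitosis genes, Aurka, Aurkb and Ccna2 held. With control sums alone, 2 against 2, the calls were Mcm5 (1.14), Mcm7 (1.11) and Uhrf1 (0.91), a share near the 7.26% of all genes called higher in that fit. With the replicate as a block Mki67 was called lower (-0.34) and Ccne1 (0.84), Ccne2, Birc5, Bub1 and Tpx2 were called higher, making 28 higher and 1 lower, where 28.1% of all genes were higher and 29.3% lower.

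**Figure D4:**
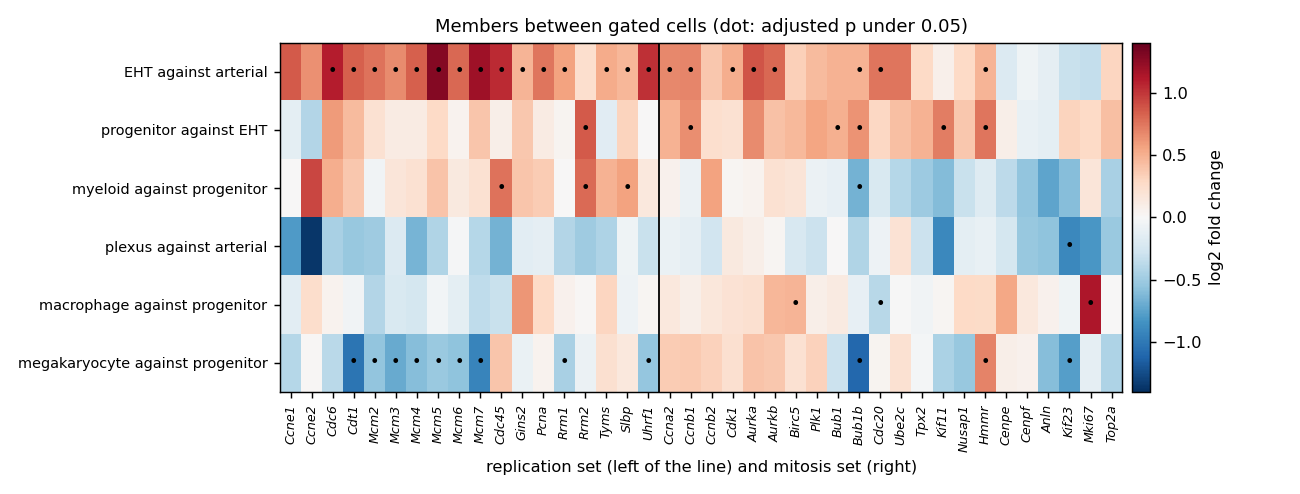
Log2 fold change of each member (columns, replication genes left of the line) in the 6 comparisons between classes (rows) as a colour scale, with a dot for an edgeR adjusted p under 0.05. All 18 replication genes are positive in EHT against arterial cells, 15 with a dot, and 9 have a dot for a fall in megakaryocytes against progenitors.

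From EHT cells to progenitors 5 mitosis genes and 1 replication gene rose, in a comparison that shares the EHT sums with the last one. None of the 40 was lower, and the 6 stand against 6.62% of 9238 genes called higher. The median log2 fold change was 0.42 over the mitosis and 0.12 over the replication genes. Rrm2 stood at 80.0 and 86.1 CPM in EHT cKO, 86.8 and 65.8 in EHT control, 106.2 and 145.4 in progenitor cKO and 112.2 and 185.1 in progenitor control (0.86 ± 0.20, edgeR adjusted p = 0.00998), with every progenitor sum above every EHT sum. Hmmr, which binds spindle microtubules, rose by 0.75, and the spindle motor Kif11 by 0.71. Ccnb1 rose by 0.65 from 66.1 to 115.7 CPM to 118.8 to 139.8, also without overlap. The checkpoint kinases Bub1b and Bub1 rose by 0.63 and 0.49.

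The helicase was not called in this step. Mcm5 was at 133.7, 132.7, 137.4 and 135.6 CPM in the 4 progenitor sums, a narrow range just above the highest EHT sum of 127.3 (log2 0.28 ± 0.13, adjusted p = 0.172). Ccne1 (-0.13 ± 0.26), Pcna (0.11 ± 0.15), Cdc20 (0.28 ± 0.24), Mki67 (0.28 ± 0.28) and Top2a (0.42 ± 0.17) did not pass either. Hmmr, Rrm2, Kif11 and Bub1b were called in all 8 fits that left out a sum, Ccnb1 and Bub1 in 3 of 8. Under a block for replicate 18 members were called higher, where 15.0% of all genes were, Plk1, Aurka, Aurkb, Top2a, Cdt1, Cdc6, Mcm5 and Mcm7 among them. With each cell thinned to 6000 UMIs before summing, 1 was, where 2.38% of all genes were.

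In myeloid cells, on the granulocyte and monocyte path, Rrm2, Cdc45 and Slbp were higher than in progenitors. The replication genes called higher were 3 (4.77% of 8255 genes were) and 1 mitosis gene was lower (3.88% of all), so that the members were called about as often as other genes. The median log2 fold change was 0.37 over the replication and -0.20 over the mitosis genes. Rrm2 reached 220.2, 227.1 and 220.6 CPM in the 3 myeloid sums, above all progenitor sums (106.2 to 185.1, log2 0.80 ± 0.21, edgeR adjusted p = 0.0345). Cdc45 rose by 0.76 and Slbp by 0.56, whereas Bub1b, a kinase of the spindle checkpoint, fell by 0.66 on the log2 scale. Mcm5 again had a narrow range, 163.7 to 164.9 CPM, above every progenitor sum, but did not pass (0.40 ± 0.13, adjusted p = 0.0888). Pcna (0.36 ± 0.17), Ccne1 (0.0001 ± 0.29), Ccnb1 (-0.08 ± 0.16), Cdc20 (-0.22 ± 0.15), Mki67 (0.17 ± 0.41) and Top2a (-0.46 ± 0.20) did not pass. The calls were unstable. None of the 4 held in all 7 fits that left out a sum, and 0 members were called without progenitor cKO replicate 1, progenitor control replicate 1, myeloid cKO replicate 2 or myeloid control replicate 2. Without progenitor cKO replicate 2 they were 4 higher and 0 lower (501 and 337 of 8041 genes were). Without progenitor control replicate 2 they were 3 and 0 (345 and 310 of 8346 genes). Without myeloid control replicate 1 they were 2 and 1 (401 and 318 of 8862 genes). Under the replicate block 8 were higher (11.0% of all genes were), among them Ccne2 (0.98), Tyms, Pcna and Mcm5, and 6 lower (9.01% of all), namely Bub1b, Kif11, Ube2c, Tpx2, Cenpf and Top2a.

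In class means, plexus cells (median 35067 UMIs, against 23425 in arterial cells) held the least replication RNA as a share of UMIs. For all 18 replication genes and 15 of 22 mitosis genes the lowest class mean was theirs, and all 18 replication genes lay below the arterial level (median log2 -0.43). None of these passed the test, and Kif23, a motor of cytokinesis, alone among the members was called, lower by 0.90 on the log2 scale (25.9, 24.7, 15.1 and 13.2 CPM in plexus, 29.4 to 54.7 in arterial sums), where 3.89% of 8892 genes were called lower. Ccne1 (-0.79 ± 0.37), Mcm5 (-0.42 ± 0.25), Pcna (-0.12 ± 0.17), Rrm2 (-0.50 ± 0.28), Ccnb1 (-0.13 ± 0.18), Cdc20 (-0.07 ± 0.19), Mki67 (-0.81 ± 0.44) and Top2a (-0.52 ± 0.49) did not pass. Kif23 was not called without arterial control replicate 1 or 2 or plexus control replicate 1 or 2, when 0 members were lower. Without arterial cKO replicate 2 there were 3, where 307 of 8773 genes were lower. Without plexus cKO replicate 2 there were 2 (321 of 9467 genes), and without plexus cKO replicate 1 there were 5 (335 of 9461). With the replicate as a block, 3 were lower, Kif23, Kif11 and Mcm4, where 7.38% of all genes were. When cells were grouped by clusters made without the members, the cluster named plexus, led by Aplnr, Nrp2 and Nr2f2, was a different set of cells, and 33 members were higher in it than in the arterial clusters and 0 lower, where 16.5% of all genes were higher.

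Cycling in the Kitl with Esm1 cells went with the lack of Gja5. Of those at the arterial Gja5 level 6 of 71 were M-high, 8.45%, and of those below it 15 of 34, 44.1%. By sum the counts at that level were 1 of 16 and 5 of 21 in cKO and 0 of 16 and 0 of 18 in control. Below it they were 8 of 16 and 3 of 7 in cKO and 2 of 5 and 2 of 6 in control, a higher share in each of the 4 sums. The split was made after the class was found to be mixed.

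Macrophages, which at this stage largely come from the yolk sac, differed from progenitors in few members. Called higher were 2 (16.9% of 8439 genes were) and lower 1 (14.6% of all), both smaller shares than among other genes. Mki67 was at 323.8 and 134.7 CPM in cKO and 392.2 and 136.8 in control macrophages, against 131.0 and 81.0 in cKO and 172.6 and 82.2 in control progenitors (log2 1.13 ± 0.34, edgeR adjusted p = 0.0254). In both classes the replicate 1 sums were the higher ones, and the ranges overlapped. Birc5 rose by 0.47, at 422.6 to 478.5 CPM against 292.1 to 386.5. Cdc20 fell by 0.39 on the log2 scale, at 108.5 to 132.0 CPM in macrophages against 152.5 to 192.1 in progenitors. Ccne1 (-0.15 ± 0.18), Mcm5 (-0.04 ± 0.12), Pcna (0.28 ± 0.15), Rrm2 (0.02 ± 0.21), Ccnb1 (0.09 ± 0.14) and Top2a (0.01 ± 0.27) did not pass. Each of the 3 calls was lost in some fits that left out a sum: Mki67 without either progenitor sum of replicate 2 or either macrophage sum of replicate 1, Birc5 without either progenitor sum of replicate 1 or either macrophage sum of replicate 2, and Cdc20 in 6 of 8, namely all but those without progenitor control replicate 1 and macrophage cKO replicate 2. The replicate block gave 7 higher and 3 lower (24.8% and 24.4% of all genes were), the latter Cdc20, Mcm2 and Mcm7.

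Megakaryocytes, whose precursors can replicate DNA without dividing, held less replication RNA than progenitors as a share of UMIs. Of the 18 replication genes 9 were lower and 0 higher (median log2 -0.42), and of the 22 mitosis genes 2 were lower and 1 higher (median 0.07), against 20.9% of 9077 genes called lower and 21.3% called higher. Both megakaryocyte sums were of replicate 2. Bub1b, at 20.7 and 22.2 CPM, against 56.7 and 51.7 in cKO and 55.8 and 42.7 in control progenitors, fell most (by 1.09 on the log2 scale), followed by the licensing factor Cdt1 (by 1.03) and the helicase gene Mcm7 (by 0.92), the motor gene Kif23 (by 0.77) and the helicase gene Mcm3 (by 0.70). Mcm5, at 83.4 and 83.8 CPM, was below every progenitor sum (-0.52 ± 0.14, edgeR adjusted p = 0.0147). Hmmr rose by 0.70 to 150.3 and 162.1 CPM from 95.2 to 121.3. Ccnb1, at 151.5 and 140.0 CPM, lay above every progenitor sum without passing (0.36 ± 0.15, adjusted p = 0.0811). Ccne1 (-0.40 ± 0.18), Pcna (0.05 ± 0.19), Rrm2 (-0.08 ± 0.25), Cdc20 (0.04 ± 0.16), Mki67 (-0.13 ± 0.26) and Top2a (-0.44 ± 0.19) did not pass. Bub1b, Cdt1 and Mcm7 were called in all 6 fits that left out a sum. Without megakaryocyte cKO replicate 2 there was 1 higher and 3 lower, and without megakaryocyte control replicate 2 there were 0 and 3, each leaving 1 sum whose spread is assumed to be that of the progenitors. Without progenitor cKO replicate 2, 2 were higher and 13 lower, where 1931 and 1876 of 8691 genes were. With the replicate as a block 2 members were higher, the second being Cenpf (0.35), where 25.3% of all genes were.

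Other cell cycle genes were followed on a list of 41 that govern the same steps. Of 38 tested in EHT against arterial cells 16 were higher (21.2% of all genes were) and 2 lower (23.5% of all). DNA polymerase epsilon Pole (1.44), the origin recognition subunit Orc1 (1.34), the primase Prim1 (1.16), the transcription factor Mybl2 (1.10) and Pold1 (0.99) rose most of those past the threshold, and the CDK inhibitors Cdkn1b and Cdkn1c both fell by 0.73 on the log2 scale. Cdkn1c, an inhibitor kept in resting cells, was at 1218 to 1331 CPM in arterial, 1651 to 2845 in plexus, 599.2 to 838.9 in EHT and 24.5 to 276.2 in progenitor sums, so that none of these 4 classes overlapped. From EHT cells to progenitors it fell by 2.73 while the G1 kinase gene Cdk6 (1.75), Ccnd1 (1.20), Ccng1 (0.84) and Cdca8 (0.55) rose, in all 6 higher and 1 lower of 39, where 6.62% and 10.3% of all genes were. Cdk6 and Ccnd1 were called in all 8 fits that left out a sum, Cdkn1c in all but that without progenitor control replicate 1, Ccng1 in all but those without EHT control replicate 1 or progenitor cKO replicate 2, and Cdca8 in 4, not without either EHT cKO sum, EHT control replicate 1 or progenitor cKO replicate 2. In plexus against arterial cells 2 of 36 were higher, Ccnd1 (2.43) and Cdkn1c (0.92), and 2 lower, Ccnd2 (-1.17) and Cdkn2d (-0.61), where 5.33% and 3.89% of all genes were. Grouping by clusters turned Cdkn1c to -1.78. Ccnd1 and Cdkn1c were called in all 8 fits that left out a sum, but Ccnd2 in 3, those without arterial cKO replicate 2 or either plexus cKO sum, and Cdkn2d in 2, those without arterial control replicate 1 or plexus cKO replicate 1.

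The D cyclins, which start the cycle in response to growth factors, parted the blood classes. In myeloid cells against progenitors 3 of 38 were lower and 0 higher, Cdkn1c (-3.98), Ccnd1 (-3.57) and Ccnd2 (-2.57), where 3.88% of all genes were lower and 4.77% higher. Both cyclins were called in all 7 fits that left out a sum, but Cdkn1c in 2, those without progenitor cKO replicate 1 or progenitor control replicate 2. In macrophages 6 of 38 were higher and 7 lower, near the 16.9% and 14.6% of all genes, with Cdkn2c, an inhibitor of the D cyclin kinases, higher by 3.50 and Ccnd1 by 1.53, and with Cdkn1c (-4.44), Ccnd2 (-2.32) and Ccnd3 (-0.96) lower. In megakaryocytes 5 of 39 were higher and 7 lower, smaller shares than the 21.3% and 20.9% of all genes, Cdkn2d (3.63) and Rb1 (2.79) leading the first and Cdkn1c (-6.41), Ccnd1 (-5.20) and Cdk6 (-2.73) the second. Cdkn1c was not called there without either megakaryocyte sum. These 3 comparisons and that of progenitors with EHT cells share the progenitor sums.

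The replicates differed in a few members across the 5 classes with sums of both replicates in each genotype (arterial, plexus, EHT, progenitor and macrophage). Over the 10 pairs of sums of 1 class and hashtag, Mki67 was higher in replicate 1 in 10 of 10, by a median log2 ratio of 1.02 (0.69 to 1.51), and Top2a in 10 of 10, by a median of 0.87. Mcm5, Anln and Kif11 were higher in all pairs too, and Ccnb2, a mitotic cyclin, was lower in 10 of 10 (median -0.39, -1.23 to -0.12). As a share this was not more than usual: 12.5% of members were higher and 2.5% lower in every pair, beside 11.1% and 6.2% of 10262 genes. The M-high share followed in macrophages, with 84.2% of 76 cells in replicate 1 and 59.6% of 534 in replicate 2. In arterial (29.95% and 25.4%) and plexus cells (20.75% and 19.23%) the share was also higher in replicate 1, by less. It was lower in replicate 1 in EHT cells (39.3% and 47.6%) and progenitors (56.4% and 67.4%). All 101 cells that miss the study's limits on genes, UMIs or mitochondrial RNA were in replicate 1, and their part in this was not tested.

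The study compared cKO with control cells to learn what the loss of Nupr1 does. Genotype was fitted in the 5 classes with sums of both replicates, and without a replicate block no member was called in any of them, while myeloid cells and megakaryocytes were not fitted. In arterial, plexus, progenitor and macrophage cells 0.0% of all genes were called (of 10007, 7977, 8321 and 10640 tested), and in EHT cells 0.0102%, which is Nupr1 alone. At an unadjusted p under 0.05 edgeR gave 2 members in arterial cells, 12 in plexus cells and 0 in each of the other 3 classes. Over all genes that test gave 92 of 10007 in arterial and 228 of 7977 in plexus cells. It gave 112 of 9794 in EHT cells, 80 of 8321 in progenitors and 43 of 10640 in macrophages. DESeq2 called 0 members in each class. Each genotype had 2 sums. The share of cells with Xist and none of 4 Y-linked genes was 0.872% and 57.6% in the cKO cells of replicates 1 and 2. In control it was 92.8% and 98.7%. In these sums the embryos' sex thus cannot be told apart from genotype. The cKO cells of replicate 2 were mixed in this mark, and the genotypes were not compared within 1 sex.

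The paper measured the cell cycle by Ki67 with Hoechst staining and by BrdU uptake. It reported no difference between cKO and control at E10.0 in arterial, hemogenic endothelial and aortic cluster cells defined by surface proteins. Those populations and measures are not the gates and RNA counts used here. In M-high share, given without a test, the genotypes differed by class. In arterial cells the cKO share was lower by 9.90 percentage points on average (-4.18 in replicate 1 and -15.6 in replicate 2), and in EHT cells by 7.39 (-7.46 and -7.32). It was higher by 19.4 points in plexus cells, with 28.1% and 28.6% in cKO against 9.52% and 8.33% in control, by 20.6 in progenitors and by 4.85 in macrophages, where leaving out 1 sum gave -7.20 to 16.9 points. The exact binomial intervals of the plexus shares were wide, 13.7 to 46.7% and 13.2 to 48.7% in cKO and 1.17 to 30.4% and 1.03 to 27.0% in control, and overlapped. Halving the limit for an M-high cell turned the progenitor difference to -3.35 points, and doubling it turned that of EHT cells to 3.41.

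**Figure D5:**
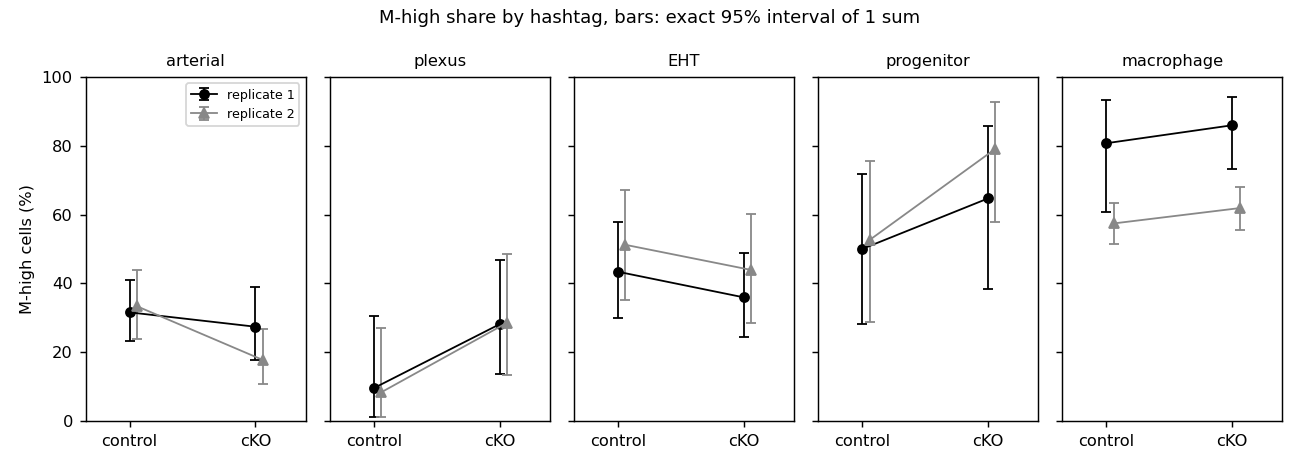
M-high share (percent of thinned cells) in control and cKO by class, with a line joining the 2 genotypes of a replicate pool and bars for the exact binomial 95% interval of each sum. In plexus cells the cKO share is the higher one in both pools, by 18.6 and 20.2 points, and in arterial and EHT cells the cKO share is the lower one in both.

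Plexus cells were the class in which the members moved most with genotype. Of 38 members tested, 36 had a positive log2 difference, cKO minus control, with a median of 0.60 beside 0.0067 over all genes. Of the 16 replication genes tested the cKO sums were both above the control sums for 11, and of the 22 mitosis genes for 15, against 13.7% of all 7977 genes. At an unadjusted p under 0.05 there were 12, against 2.86% of all genes in either direction. Mki67 was at 131.0 and 60.7 CPM in cKO and 52.3 and 31.9 in control (1.21 ± 0.43, edgeR adjusted p = 0.9997), above its own pool's control in both. Rrm2 was at 57.6 and 68.6 CPM in cKO and 31.6 and 27.5 in control (1.11 ± 0.29). With the replicate as a block 4 members were called higher, Mki67 (adjusted p = 0.00574), Cenpe (0.0206), Top2a (0.0415) and Rrm2 (0.0454), when 0.351% of all genes were called higher. Without plexus cKO replicate 2, which leaves 1 cKO sum, Mki67 was called and no other member. The cells also differed in Gja5, since 37 of 60 cKO but 34 of 45 control plexus cells were at the arterial level. Grouping by clusters cut the difference in M-high share to 4.64 points. The cluster fit, run only without a replicate block, called no member, as did the gated fit without a block. In progenitors, Mcm5 was below both control sums in both cKO sums by a small margin (133.7 and 132.7 against 137.4 and 135.6 CPM, -0.04 ± 0.25). In EHT cells Mki67 differed by 0.30 ± 0.35, Top2a by 0.34 ± 0.25, Mcm5 by 0.11 ± 0.25 and Ccnb1 by -0.20 ± 0.31. In arterial cells Cdc45 (-0.77 ± 0.31) and Anln (-0.69 ± 0.31) had the unadjusted p under 0.05, and Mki67 differed by -0.38 ± 0.39. In macrophages the 8 genes named in every comparison, from Mki67 to Rrm2, differed by -0.19 to 0.33.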

How the data were processed

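The authors sequenced hashtagged CD31+CD44+ cells on the 10x platform, 1 pool per replicate, and deposited tables of UMI counts (genes by cells, not normalized) with a WT or KO label for each barcode. Cell Ranger 5.0.1 and the build mm10 are named in the submitters' processing notes, and hashtag singlets were kept with HTODemux in Seurat. The annotation version is not given in the sources used here. No further doublet caller was run, and 0 barcodes were shared by the replicates.

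The deposited counts were used as they are. Gates were set at 100 CPM (Gja5, C1qa, Gp9, and Mpo with Fcgr3) or 20 (each gene of the other pairs). Cells were thinned to 6000 UMIs with a fixed seed, and an M-high or S-high cell had at least 10 UMIs of the set. Exact binomial intervals (95%) cover counting error only. UMIs were summed per class, hashtag and replicate, with at least 10 cells a sum, and compared with edgeR 4.0.16 in R 4.3.3 (filterByExpr, TMM, robust quasi-likelihood test, Benjamini-Hochberg adjustment over all genes tested, threshold 0.05). Gates used no member, and the procedure was tested on simulated counts. Shares and phase balance are scores over the members and have no test. Other software was Python 3.11.15, numpy 2.4.6, scipy 1.17.1, pandas 2.3.3 and leidenalg 0.10.2. Replicate ratios used log2(CPM + 1) for genes with at least 200 UMIs over the 20 sums.

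Both genotypes of a replicate shared a pool, so replicate numbers pair the sums. Deviations from the genotype means correlated across genes with r = 0.423 in arterial, 0.362 in plexus, 0.425 in EHT, 0.527 in progenitor and 0.447 in macrophage cells, and genes are not independent replicates. The genes named in each comparison are 8 taken every time (Mki67, Top2a, Ccnb1, Cdc20, Ccne1, Mcm5, Pcna and Rrm2), the 6 members with the largest change past the threshold, and the 5 such genes of the other list. The members and lists were chosen with earlier results of these data known. Alternatives were the replicate block, DESeq2 1.42.0, no low-count filter, sums left out in turn, thinned cells, clusters made without the cell cycle genes, the study's limits on cells, control cells only, other UMI limits, 15000 or all UMIs, doubled gates, and no cells in the top 5% of UMIs. Those of the phase balance and of the genotype difference in share, the split of plexus cells by Gja5 and that of EHT cells by gate were chosen after the data were seen. Promoters are RefSeq's on GRCm38.p6.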

Additional observations from a re-analysis of the deposited data

Results flagged for a closer look

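Among 125 groups of 4 sums, 6 held a value that stood apart from the other 3 by Dixon's criterion, and chance gives about 1 in 20 groups. In EHT cells, control replicate 2 had a log2 ratio of M-set to S-set UMIs of 1.02 and Pcna at 172.1 CPM. Cdc45 stood at 28.6 CPM in progenitor control replicate 1 and at 30.8 CPM in macrophage cKO replicate 2. Bub1 was at 52.5 CPM in plexus cKO replicate 1, and Rrm2 was at 178.0 CPM in macrophage cKO replicate 1.

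The difference in M-high share between cKO and control had opposite signs in some pairs of classes, in both replicates. The plexus difference exceeded that of arterial cells by 29.3 percentage points and that of EHT cells by 26.8. The progenitor difference exceeded them by 30.5 and 28.0 points, and the macrophage difference, which ran from -7.20 to 16.9 points when 1 sum was left out, by 14.8 and 12.2. These contrasts between classes were not tested.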

How the results depend on the processing

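Depth, gates and the few sums limit these results, since each genotype had 2 sums, p-values measure the spread between sums, and classes are ranges of marker levels. Without a named cause below, the cause was not tested. With the M-set limit halved, the M-high share was 34.6% in arterial, 58.5% in EHT, 86.6% in progenitor, 88.1% in myeloid, 89.0% in macrophage and 75.7% in megakaryocyte cells, and with it doubled 19.9, 25.8, 42.9, 24.2, 40.7 and 32.9%. Thinned to 15000 UMIs it was 65.3% in myeloid cells and 60.7% in megakaryocytes, the latter 59.1% unthinned, 57.4% with doubled gates and 57.0% without the top 5% of cells. With clusters it was 61.3% in plexus, 68.0% in myeloid and 37.6% in megakaryocyte cells. The phase balance (log2) of myeloid cells was 0.13 at 15000 UMIs, 0.15 unthinned and 0.17 with doubled gates, and that of megakaryocytes 1.04 unthinned, 1.02 with clusters and 0.75 without the top 5%.

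The genotype difference in M-high share of plexus cells was 22.5 points with the limit halved, 16.4 doubled, 20.5 at 15000 UMIs, 22.9 with doubled gates and 4.64 with clusters. That of EHT cells was 3.41 with the limit doubled, and that of progenitors -3.35 halved, 2.86 doubled and 8.15 with doubled gates.

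With the replicate block, which fits the pairing of the sums, members called were 1 lower in EHT against arterial cells, 18 higher in progenitors against EHT cells, 8 higher and 6 lower in myeloid cells, 3 lower in plexus cells, 7 higher and 3 lower in macrophages, 2 higher in megakaryocytes and 4 higher in cKO plexus cells. It moved no other count of calls by over 1.5 times. DESeq2 gave 0 lower in myeloid cells, where 380 of 11347 genes were, and 2 higher in megakaryocytes, where 1923 of 11840 genes were. Without a low-count filter there were 0 lower in the myeloid comparison (492 of 14648 genes were) and 2 lower in the plexus comparison (490 of 15266). Macrophages gave 4 higher and 0 lower (1836 and 1690 of 15533 genes), and megakaryocytes 7 lower (2288 of 14916). Thinned cells, with fewer UMIs and genes tested, gave 1 higher in progenitors against EHT cells, where 68 of 2857 genes were. Myeloid cells gave 0 higher and 0 lower (84 and 39 of 2156 genes), and plexus cells 0 lower (92 of 4456). Macrophages gave 0 and 0 (341 and 256 of 2250 genes), and megakaryocytes 0 higher and 3 lower (524 and 433 of 2557). The stated limits on cells gave 2 lower in macrophages, where 1254 of 8435 genes were. Control cells alone gave 3 higher in EHT cells, where 7.26% of all genes were. Clusters gave 33 higher and 0 lower in plexus against arterial cells, and reversed Ccnb1 (1.41), Cdc20 (1.27), Ccne1 (0.87), Mcm5 (1.16), Pcna (1.08), Rrm2 (1.55), Kif23 (0.73) and Cdkn1c (-1.78). Leaving out 1 sum in turn gave M-high shares of 25.6 to 30.8% in arterial, 15.3 to 22.1% in plexus and 41.1 to 46.2% in EHT cells. They were 55.8 to 65.5% in progenitors and 66.7 to 76.2% in macrophages. Genotype differences ran from -14.8 to -5.06 points in arterial and from -7.20 to 16.9 in macrophage cells. Members called were 0 to 4 higher and 0 to 1 lower in myeloid cells (126 of 8605 to 501 of 8041 genes were higher, 133 of 8605 to 337 of 8041 lower). Plexus cells gave 0 to 5 lower (258 of 8731 to 365 of 9452 genes). Macrophages gave 1 to 3 higher and 0 to 1 lower (1144 of 8484 to 1442 of 8466 and 912 of 8484 to 1269 of 8466 genes). With 1 progenitor sum left out, megakaryocytes gave 1 to 2 higher and 10 to 13 lower (1798 of 9018 to 1931 of 8691 and 1696 of 9018 to 1876 of 8691 genes). No cluster could be named progenitor, so this alternative was not run for comparisons with progenitors.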
